A study of Mus musculus with 2 samples.

Results

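Retinoid metabolism and the response to retinoic acid were followed through 9 genes of the 20211 gene symbols measured in primary perivascular cells (PCs) of the mouse aorta. The genes were given as a list of names, namely Dhrs3, Rdh10, Aldh1a1, Aldh1a2, Aldh1a3, Cyp26b1, Crabp1, Crabp2 and Rarb, and all 9 were found. The list was chosen by the measured difference between the same libraries, because Dhrs3 had one of the lowest ratios of all genes, so the ratios of its members are a description and carry no test. RNA was sequenced from 1 library of wild-type (WT) PCs and 1 library of Kai1 KO PCs (Kai1-/-), both of the C57BL/6 background and both grown in DMEM with 10% FBS according to the labels. The study's methods give another serum content for primary PCs and describe adult mice of either sex. Kai1 is another name for Cd82, which encodes a tetraspanin of the cell membrane. How the deletion was made, and how many animals gave the cells of each library, is not given in the sources used here. There were no replicates, so genotype, animal, culture and library preparation cannot be told apart.

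Cells take up retinol (vitamin A), oxidise it reversibly to retinal and oxidise retinal irreversibly to retinoic acid. RDH10 carries out the first step, DHRS3 reduces retinal back to retinol, and the ALDH1A enzymes carry out the last step. Retinoic acid is carried in the cell by the binding proteins CRABP1 and CRABP2, is broken down by the CYP26 enzymes, and acts through nuclear receptors (RARs) that pair with retinoid X receptors (RXRs) on DNA. Several genes of the pathway, among them Dhrs3, Cyp26a1, Cyp26b1 and Rarb, are known to be induced by retinoic acid itself. In blood vessels the pathway is best known for its part in the differentiation and growth of smooth muscle cells.

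The values are RPKM, nominally reads per gene length and per mapped reads of the library, so that levels of different genes can be compared per length. Some are small fractions of a read, such as Bcmo1 at 0.000113 in Kai1-/-, so the values are estimates rather than plain counts. Summed over all symbols, the RPKM values came to 884463 in WT and about 1238190 in Kai1-/-. Ratios are log2 of Kai1-/- over WT with 0.1 added to both RPKM values, and such ratios are too small for weakly expressed genes. They use the RPKM values as given, without scaling of the libraries, unless stated. Cd82 itself (chromosome 2, 93259268 to 93303297 on NCBI37) stood at 12.8 RPKM in WT and at 2.62 in Kai1-/-, and thus was not at 0. Genes whose RPKM averaged 1 or more over the pair of libraries are called kept, and counts past 2-fold refer to them unless stated. The low RPKM values fell on steps that corresponded to about 29500000 reads in WT and 26700000 in Kai1-/-. Reads per gene estimated from these steps give each ratio a 95% interval (exact binomial, with nothing added to the RPKM), which covers counting error only. The label of the cells was checked against 13 mural cell markers. Pdgfrb (44.7 in WT and 31.6 in Kai1-/-), Acta2 and Tagln were present, whereas the pericyte gene Rgs5 was near 0 with RPKM values of 0.0630 and 0.233. Kcnj8 (0 and 0.791), Abcc9 (0.0411 and 0.0303) and Anpep (0.712 and 0.348) were also under 1 RPKM in both libraries. Of the 7 mural markers kept, 4 were more than 2-fold lower in Kai1-/- and 0 were higher, beside 7.81% and 7.98% of all kept genes. With no filter 5 of the 13 were lower and 2, Rgs5 and Kcnj8, were higher, beside 9.29% and 5.96% of all symbols. The summed RPKM of the 13 went from 4646 to 2978. Of 10 adventitial fibroblast markers 8 were kept, with 3 lower and 1 higher, and their sum went from 2621 to 1503. Of 10 macrophage markers 5 were kept, with 4 lower and 1 higher, and their sum was 40.2 in WT and 19.4 in Kai1-/-. The 4 lower were Csf1r (11.7 in WT and 2.66 in Kai1-/-), Tyrobp (10.4 and 2.37), Fcer1g (11.3 and 2.47) and Lyz2 (3.44 and 1.09). Cd14 was the higher 1 (1.98 and 10.3). Emr1 was at 0 in both libraries and Mrc1 in Kai1-/-. Of 10 endothelial markers 9 were listed at 0 in Kai1-/- and 2 in WT, and Egfl7 (2.28 and 7.39) made up most of their sum of 3.58 and 7.39. Of 8 mesothelial markers 2, Krt19 and Upk3b, were kept and both were higher. The sum of the 8 was 31.0 and 94.6, nearly all Krt19. Wt1 was listed at 0 in WT and at 0.0259 in Kai1-/-, whereas Msln was lower (0.670 and 0.508). Krt8 (0.0211 in WT), Krt18 (0.0282) and Lrrn4 (0.0206) were listed at 0 in Kai1-/-. With no filter the median log2 ratio of the 8 was -0.14. Of 9 keratinocyte markers 2 were kept, Ppl (0.616 and 18.3), which was higher, and Sfn (2.44 and 1.25), which was within 2-fold. The sum of the 9 was 4.82 and 20.3, in Kai1-/- nearly all Ppl. With no filter 2 of the 9, Ivl and Lor, were lower and 2, Ppl and Krt14, were higher, and Krt5 and Krt1 were at 0 in both libraries. Of 13 cell cycle genes 11 were more than 2-fold higher in Kai1-/-, with a sum of 227 and 564. All 4 Y-linked genes looked up were above 0 in WT and listed at 0 in Kai1-/-, so that the sex of the cells and the genotype cannot be told apart. The part of these differences in the values below was not tested. In bulk RNA, fewer cells of a type and less RNA per cell cannot be told apart.

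Most of the 9 genes had a lower RPKM in Kai1-/- PCs, and the retinal reductase Dhrs3 and the retinal dehydrogenases Aldh1a2 and Aldh1a3 differed most. In all, 8 of the 9 had a log2 ratio below 0, and Cyp26b1 alone was higher in Kai1-/-. The counting intervals of Crabp1 and Rarb included 0. Of the 9, 7 were kept, and Aldh1a2 and Rarb were not. Among these 7, 6 had a ratio below 0, beside 44.9% of all kept genes. Of the 7, 2 (Dhrs3 and Aldh1a3) were over 2-fold lower and 0 over 2-fold higher. Among all 10068 kept genes, 7.81% were lower and 7.98% higher by this measure, and nothing is read from the members' count, since the list was built around these ratios. With both libraries scaled to Gapdh the members' counts were 5 lower and 0 higher, and those of all genes changed from 786 lower and 803 higher to 1856 and 278. With no filter on the mean, 3 of the 9 were more than 2-fold lower, with Aldh1a2 as the third, against 9.29% lower and 5.96% higher of all 20211 symbols. The median log2 ratio of the 7 members was -0.85 and that of all genes kept 0.08.

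**Figure D1:**
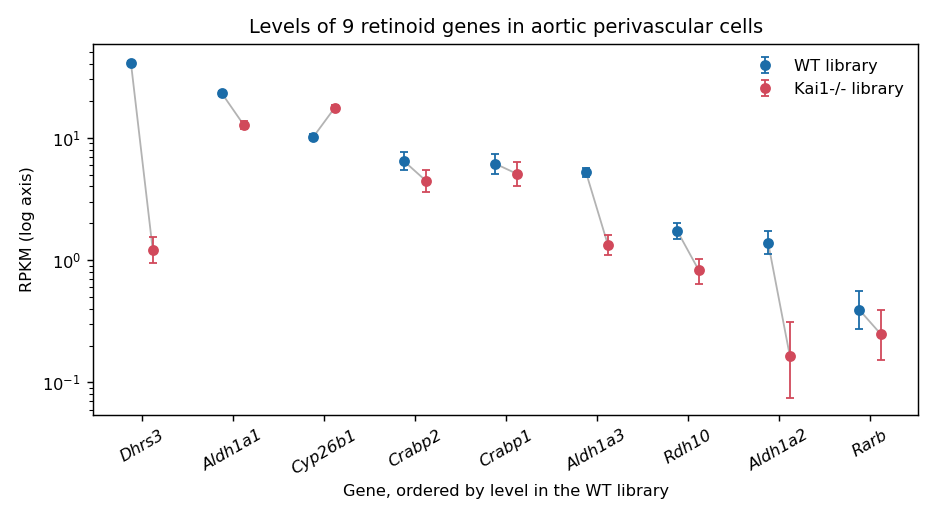
RPKM (log axis) of each of the 9 genes in the WT library (blue) and the Kai1-/- library (red), ordered by the WT level; bars are 95% Poisson intervals of the estimated reads and cover counting error only. Dhrs3 was the highest of the 9 in WT and the sixth in Kai1-/-, and Cyp26b1 is the gene whose red point lies above its blue point.

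Dhrs3 (chromosome 4, 144482730 to 144518112, plus strand) encodes a short-chain dehydrogenase that returns retinal to retinol and so limits the supply of retinal for retinoic acid synthesis. Its RPKM was 40.9 in WT but 1.21 in Kai1-/-. It was the highest of the 9 genes in WT, above 91.1% of all symbols, and the sixth in Kai1-/-, above 52.9% of them. The level in Kai1-/- was 2.95% of that in WT, a log2 ratio of -4.97 with a counting interval from -5.45 to -4.74. About 2581 and 69 reads lay behind the values, taking the longest of its 8 annotated transcripts (2337 bases), and the mix of transcripts was not resolved in the files. Ordered from the lowest ratio, Dhrs3 had rank 19 of the 10068 genes kept, and rank 5 of the 6518 genes that averaged 5 RPKM or more. The genes just before it in the latter order were Cck (-6.99) and Lce1g (-6.77), and those just after it were Efs (-4.95) and Gpx3 (-4.83). Dhrs3 was thus closer to Efs and Gpx3 than to Lce1g.

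The other kept retinal reductases differed far less, whereas Rdh12, which was not kept, was more than 2-fold lower. Rdh11, which reduces retinal among other aldehydes, had an RPKM of 7.09 in WT and 10.96 in Kai1-/-. Dhrs4 had 21.7 and 29.6, and Rdh14 had 2.63 and 4.36. With the libraries scaled to Gapdh, which lowers each ratio by about 0.50, that of Dhrs4 turns negative. Rdh13 was 5.96 and 5.50, with a counting interval of its log2 ratio from -0.30 to 0.07. Rdh12 had 0.757 in WT and 0.152 in Kai1-/-, from about 57 and 10 reads. Its log2 ratio was -1.76, and the counting interval with nothing added ran from -3.50 to -1.38. Thus 1 of the 5 kept reductases was over 2-fold lower, Dhrs3, and 0 were over 2-fold higher, beside 7.81% and 7.98% of all kept genes. Dhrs3 is the gene by which the members were chosen, so nothing is read from this count. The summed RPKM of the 6 reductases was 79.1 in WT and 51.8 in Kai1-/-, and without Dhrs3 it was 38.1 and 50.6. With scaling to Gapdh the latter was 35.7 in Kai1-/-, so that the order of the libraries depends on the scaling. Dhrs3 made up 51.8% of the sum in WT and 2.33% in Kai1-/-, whereas Dhrs4 went from 27.4% to 57.2%.

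**Figure D2:**
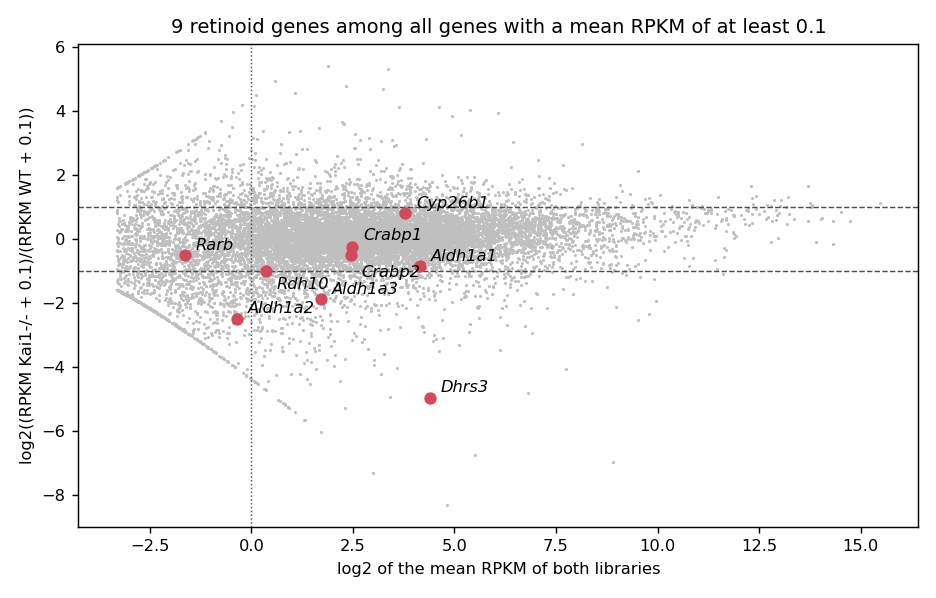
Log2 ratio of Kai1-/- to WT (0.1 RPKM added) against the log2 mean RPKM for every gene averaging 0.1 RPKM or more (grey), with the 9 retinoid genes in red; dashed lines mark 2-fold, and the dotted line a mean RPKM of 1. Dhrs3, at -4.97, lies well below the band of genes of similar level, while Crabp1, Crabp2 and Rarb lie inside it.

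Rdh10 (chromosome 1, 16095855 to 16123815), the main retinol dehydrogenase of the embryo, was expressed at a low level. Its RPKM was 1.74 in WT and 0.822 in Kai1-/-, or 47.2% of WT, from about 174 and 74 reads. The log2 ratio of -0.998 had a counting interval from -1.50 to -0.69, so that it lay at the 2-fold line and the counting error spanned that line. Of the genes kept, 7.84% had a lower ratio. Among 10 genes whose products oxidise retinol, only Rdh10, Rdh5 and Adh7 were kept. Of these 3, 1 was more than 2-fold lower and 0 higher, beside 7.81% and 7.98% of all kept genes. Nothing is read from so small a count. The lower gene was Adh7, an alcohol dehydrogenase that uses retinol as a substrate, with 3.85 in WT and 0.897 in Kai1-/- (log2 ratio -1.99, interval -2.48 to -1.74). Rdh5 had 3.0 and 2.51, with an interval from -0.70 to 0.19. Adh4 and Rdh7 were listed at 0 in both libraries, and Adh1 had 0.626 and 0.264.

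Aldh1a1, Aldh1a2 and Aldh1a3, whose products make retinoic acid, were each lower in Kai1-/-. Aldh1a1 (chromosome 19, 20676451 to 20717952), the most abundant of them, stood at 23.0 RPKM in WT and 12.7 in Kai1-/-. Its log2 ratio was -0.85 with a counting interval from -0.997 to -0.72, less than a 2-fold difference. Aldh1a3 (chromosome 7, 73535778 to 73572403) had 5.20 in WT and 1.33 in Kai1-/-, or 25.6% of WT, a log2 ratio of -1.89 with an interval from -2.27 to -1.67. Of the genes kept, 2.58% had a lower ratio than Aldh1a3 and 10.1% a lower ratio than Aldh1a1. Aldh1a2 (chromosome 9, 71063596 to 71144050), the dehydrogenase that supplies retinoic acid to much of the early embryo, had 1.39 in WT and 0.163 in Kai1-/-, from about 85 and 9 reads. Its log2 ratio was -2.50 with 0.1 added to each RPKM. The counting interval of the ratio with nothing added ran from -4.27 to -2.10 and was the widest of the 9. Of the 2666 genes averaging between 0.1 and 1 RPKM, 5.81% had a lower ratio than Aldh1a2, and their median ratio was -0.29.

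The 3 dehydrogenases differed unequally, and Aldh1a1 differed least. Their summed RPKM was 29.6 in WT and 14.2 in Kai1-/-, or 48.0% of WT. Aldh1a1 made up 77.7% of the sum in WT and 89.5% in Kai1-/-. Aldh1a3 went from 17.6% to 9.38% and Aldh1a2 from 4.70% to 1.15%. These shares do not depend on the scaling of the libraries. The counting intervals of the ratios of Aldh1a1 and Aldh1a3 do not overlap, nor do those of Aldh1a1 and Aldh1a2. Those of Aldh1a2 and Aldh1a3 do overlap.

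Aldh1a7 (chromosome 19, 20767443 to 20802052), a close copy of Aldh1a1, stood at 4.30 RPKM in WT and 1.44 in Kai1-/-, a log2 ratio of -1.52. The coding sequences of Aldh1a1 and Aldh1a7 were identical at 92.0% of 1504 aligned bases, and 151 of the 2004 windows of 50 bases in the Aldh1a1 transcript also occurred in that of Aldh1a7. Reads from such windows cannot be assigned to one gene, so the values of this pair are uncertain to that extent. With Aldh1a7 the summed RPKM of the family was 33.9 and 15.6. Aldh1a2 and Aldh1a3 shared 0 such windows with Aldh1a1, at 71.8% and 69.9% identity of the coding sequence. Of the 5 genes listed for this step, 3 were kept, and 2 of the 3, Aldh1a3 and Aldh1a7, were more than 2-fold lower and 0 higher. Whether the product of Aldh1a7 carries out this step was not tested. Among all kept genes 7.81% were lower, and since this list holds members chosen by their ratios, nothing is read from its count. Aldh8a1 was listed at 0 in WT and had 0.128 in Kai1-/-.

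Cyp26b1 (chromosome 6, 84521938 to 84543740, minus strand) encodes the enzyme that clears retinoic acid in many embryonic tissues and in vessels. Its RPKM was 10.1 in WT and 17.6 in Kai1-/-, from about 1276 and 2022 reads. This made it the third of the 9 genes in WT and the highest in Kai1-/-. The log2 ratio of 0.80, with a counting interval from 0.71 to 0.91, was less than a 2-fold difference, and 12.8% of the genes kept had a higher ratio. It was 0.30 with the libraries scaled to Gapdh, whose own ratio was 0.50. The related Cyp26a1 was listed at 0 in both libraries, and Cyp26c1 had 0.174 in WT and was listed at 0 in Kai1-/-. Cyp26b1 was thus the only gene of this enzyme family with an RPKM above 1 in these libraries.

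The carriers of retinoic acid were within 2-fold between the libraries. Crabp1 (chromosome 9, 54612555 to 54620917) had an RPKM of 6.15 in WT and 5.07 in Kai1-/-, and its interval from -0.70 to 0.16 included 0. Crabp2 (chromosome 3, 87752588 to 87757298), which delivers retinoic acid to RARs in the nucleus, had 6.44 and 4.45, a log2 ratio of -0.52 with an interval from -0.94 to -0.14. Both genes are short, with transcripts of 802 and 931 bases, so that only about 82 to 139 reads lay behind each value. The coding sequences of the pair were 71.7% identical, with 0 shared windows of 50 bases. Their summed RPKM was 12.6 in WT and 9.53 in Kai1-/-. Fabp5, a fatty acid carrier that can also bind retinoic acid, was far more abundant, with 263 and 448. Its log2 ratio of 0.77 was above 0, unlike those of Crabp1 and Crabp2. In either direction 0 of the 3 carriers passed 2-fold, beside 7.81% lower and 7.98% higher of all kept genes. With the libraries scaled to Gapdh, Crabp2 was at -1.01, past 2-fold.

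Rarb (chromosome 14, 17263356 to 17651381, minus strand), the receptor gene best known as a direct target of retinoic acid, was the lowest of the 9 genes in WT. Its RPKM was 0.394 in WT and 0.247 in Kai1-/-, from about 33 and 19 reads. The counting interval of the ratio ran from -1.55 to 0.20, so that a difference was not detectable at this depth. The related Rarg was far higher, with 40.6 in WT and 32.9 in Kai1-/-, and Rara had 9.66 and 8.30. Rarb made up 0.778% of the summed RPKM of the 3 RAR genes in WT and 0.596% in Kai1-/-. Among the RXR genes, Rxrb had 15.8 and 23.8, Rxra had 7.01 and 7.2, and Rxrg was listed at 0 in both. Of the 4 kept receptors, 0 passed 2-fold, beside 7.81% lower and 7.98% higher of all kept genes. The log2 ratios of these receptors ran from -0.30 for Rarg to 0.58 for Rxrb. With the libraries scaled to Gapdh, the ratio of Rxra turns negative.

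The promoter of Rarb is shown because it holds the response element through which retinoic acid induces this gene. Of the 9 genes, 6 had an entry in the RefSeq promoter table used here, with 9 start sites in all, and Rdh10, Aldh1a3 and Crabp2 had none. Each promoter ran from 250 bases before the start to 50 from it on, and was placed on NCBI37 by exact match. The motif searched was a direct repeat of a receptor hexamer, on both strands, with 5 bases between the 2 copies, which could differ. The 4 hexamers allowed were the consensus AGGTCA, the related hexamer GGGTCA, and those of the known Rarb element, which are GGTTCA in its first copy and then AGTTCA in the other. This repeat occurred in 32, or 0.0974%, of 32851 promoters. Among 71 promoters of 51 retinoid pathway genes it occurred in those of Rarb and Cyp26a1. Since hexamers of the Rarb element were among those searched, its match in Rarb was given by the choice of motif. The repeats with 1 and with 2 bases between, found in 0.222% and 0.268% of all promoters, occurred in 0 of the 71. A single hexamer, found in 43.7% of all promoters, occurred in 2 of the 9 promoters of the members, at 1 start site each of Aldh1a1 and Rarb. The sequences read 5′ to 3′ on the strand of the gene. For Rarb, the 250 bases before the start are chr14:17407991-17408240 (minus strand), at a start inside the annotated gene, and the repeat in capitals lies from 53 to 37 bases before the start. For Cyp26a1, the stretch is chr19:37772246.0-37772297.0 (plus strand), and its capitals mark the repeat on the opposite strand, from 32 to 16 bases before the start. For Dhrs3, the gene with the largest difference of the 9, the 250 bases before the first of its 3 starts are chr4:144482480-144482729 (plus strand), and these hold 0 of the hexamers.
Rarb: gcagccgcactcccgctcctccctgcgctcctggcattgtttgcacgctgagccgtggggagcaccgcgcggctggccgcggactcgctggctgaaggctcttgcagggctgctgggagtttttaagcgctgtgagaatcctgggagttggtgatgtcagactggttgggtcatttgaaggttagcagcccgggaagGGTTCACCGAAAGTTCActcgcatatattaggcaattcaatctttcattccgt
Cyp26a1: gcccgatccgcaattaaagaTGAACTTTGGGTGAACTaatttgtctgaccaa
Dhrs3: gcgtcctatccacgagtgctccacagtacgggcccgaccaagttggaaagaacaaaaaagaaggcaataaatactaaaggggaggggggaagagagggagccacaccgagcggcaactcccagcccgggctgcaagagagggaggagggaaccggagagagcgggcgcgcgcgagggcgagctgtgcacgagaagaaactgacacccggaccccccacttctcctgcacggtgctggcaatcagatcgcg
The pair of genes with the repeat were at or near 0 in both libraries, Cyp26a1 at 0 and Rarb at an RPKM under 0.4. The other 5 members with an entry had 0 such repeats in the windows searched, which says nothing about elements further away.

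The list of 22 genes known to be induced by retinoic acid held lower and higher genes. Of the 12 kept, 2 were more than 2-fold lower, Dhrs3 and Tgm2, 1 was more than 2-fold higher and 9 were within 2-fold. Of all kept genes 7.81% were lower and 7.98% higher. Dhrs3 is the gene by which the members were chosen, so nothing is read from these counts. The median log2 ratio of the 12 was -0.24. Tgm2, a transglutaminase, had an RPKM of 58.5 in WT and 16.3 in Kai1-/-, a log2 ratio of -1.84. The homeobox genes Hoxb4 (6.62 and 6.14), Meis1 (3.44 and 5.52) and Meis2 (6.87 and 5.27) were within 2-fold. Rarres1, named for its induction by retinoids, was 22.3 in WT and 22.8 in Kai1-/-, and Btg2 was 4.38 and 5.32. Ret had 0.449 in WT, from about 95 reads, and was listed at 0 in Kai1-/-. Stra6 was listed at 0 in WT and had 0.102 in Kai1-/-, and 6 of the 22 genes, among them Cyp26a1, Lrat, Hoxb1 and Stra8, were at 0 in both.

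**Figure D3:**
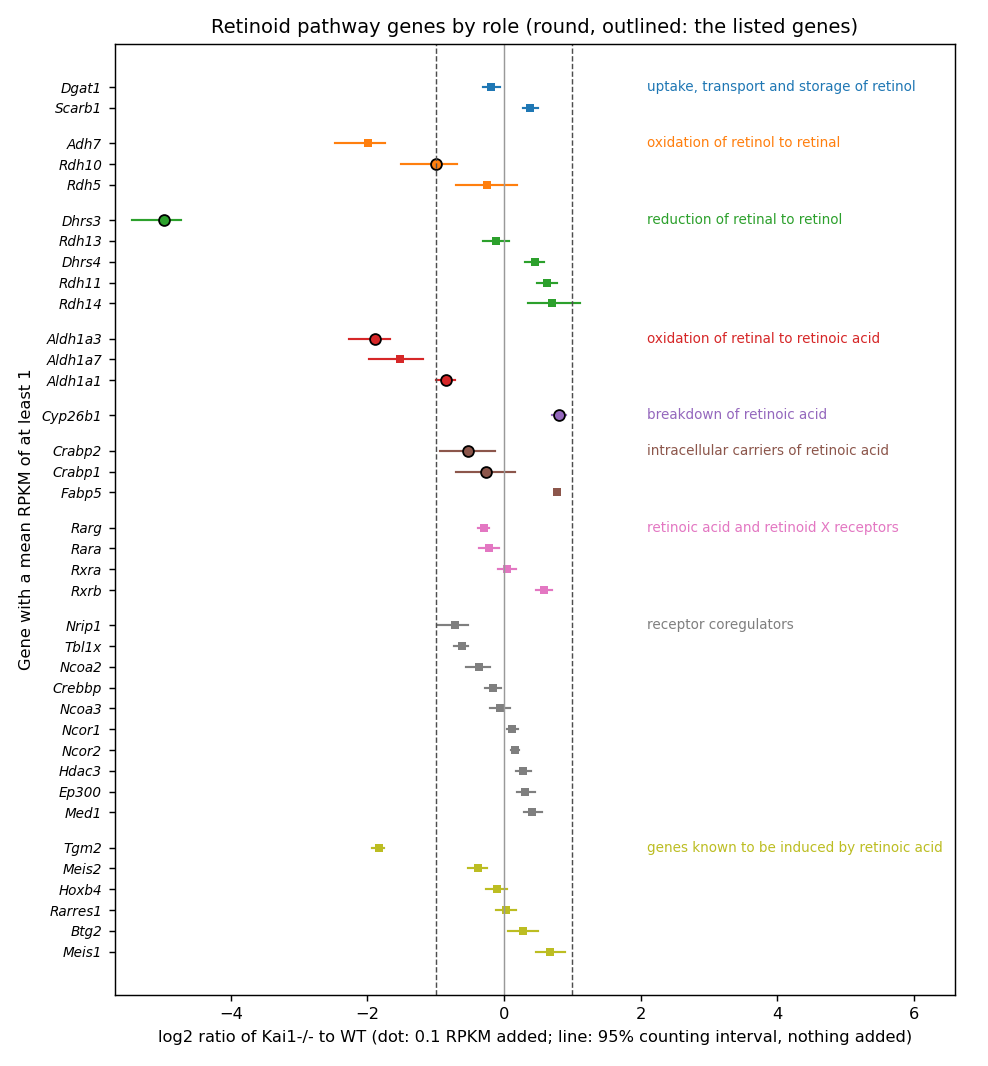
Log2 ratio of Kai1-/- to WT for 37 of the 39 kept genes of the retinoid pathway lists, grouped by role, each gene under the first role that lists it; round outlined points are the 7 of the 9 members that were kept, lines are 95% counting intervals and dashed lines mark 2-fold. The 5 genes past 2-fold on the lower side are Dhrs3, Adh7, Aldh1a3, Tgm2 and Aldh1a7.

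Over all 70 genes of the 9 role lists, which hold the 9 members too, 39 were kept. Of these 5 were more than 2-fold lower (Dhrs3, Adh7, Aldh1a3, Tgm2 and Aldh1a7), 1 was more than 2-fold higher and 33 were within 2-fold, with a median log2 ratio of -0.11. Leaving out the members, 3 of 32 were lower and 1 was higher, with a median of -0.01, beside 7.81% and 7.98% of all genes. Of the genes past 2-fold on the lower side, 4 of the 5 are on the lists of enzymes that oxidise or reduce retinoids, and Tgm2 is not. The 4 include Aldh1a7, whose activity on retinal was not tested. Dhrs3 and Aldh1a3 are among these 4 and belong to the list built around these ratios, so nothing is read from this count. Among the genes of uptake and storage, Scarb1, a lipoprotein receptor that takes up carotenoids, had an RPKM of 15.2 and 19.9, and Dgat1, which can esterify retinol, had 24.4 and 21.4. The retinol esterifying enzyme Lrat and the retinol carriers Rbp4 and Ttr were listed at 0 in both libraries. The 10 kept of 11 receptor coregulators were within 2-fold, with ratios of 5 below 0 and of 5 above, from -0.71 for Nrip1 to 0.41 for Med1. With scaling to Gapdh each of the 10 was below 0, and Nrip1 (-1.17) and Tbl1x (-1.12) passed 2-fold.

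The order of the 9 genes by level differed between the libraries. In WT it ran Dhrs3, Aldh1a1, Cyp26b1, Crabp2, Crabp1, Aldh1a3, Rdh10, Aldh1a2 and Rarb. In this order the neighbours whose counting intervals overlapped were Crabp2 and Crabp1, Crabp1 and Aldh1a3, and Rdh10 and Aldh1a2. In Kai1-/- it ran Cyp26b1, Aldh1a1, Crabp1, Crabp2, Aldh1a3, Dhrs3, Rdh10, Rarb and Aldh1a2. Here the overlapping neighbours were Crabp1 and Crabp2, Aldh1a3 and Dhrs3, Dhrs3 and Rdh10, and Rarb and Aldh1a2. The level of Dhrs3 was 1.78 times that of Aldh1a1 in WT and 0.0950 times in Kai1-/-. The level of Cyp26b1 was 0.438 times that of Aldh1a1 in WT and 1.39 times in Kai1-/-. These within-library ratios are per length and do not change with the scaling of the libraries.

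**Figure D4:**
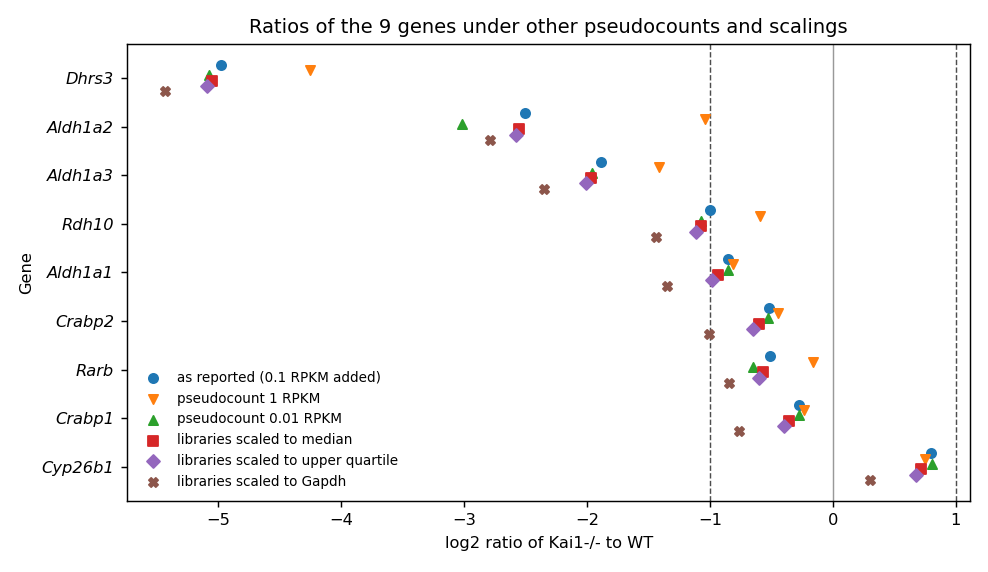
Log2 ratio of Kai1-/- to WT for each of the 9 genes as reported (blue circles) and with other pseudocounts or scalings of the libraries; dashed lines mark 2-fold. The sign of each gene is the same in all settings drawn, Rdh10 lies on either side of the line at -1, and scaling to Gapdh moves every gene to the left.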

How the data were processed

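RNA of 1 WT and 1 Kai1-/- library of primary PCs was sequenced by the authors. They aligned the reads to mm9 (NCBI37) with TopHat2 2.0.9, named with Bowtie and Cufflinks in the submitters' processing notes, and deposited 1 RPKM value per RefSeq gene and library. No counts or replicates were analysed here, so no p-value was computed, and the part of the authors' definition that was used is the 2-fold line. The strandedness of the libraries is not given in the sources used here.

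The members and all gene lists were chosen with earlier results of these data known. Of 20462 rows per library, 38 named no gene and were dropped, and 153 symbols on several rows were averaged. The log2 ratio used a pseudocount of 0.1 RPKM, and summaries used the 10068 genes whose RPKM averaged 1 or more. Genes named were the members, Cd82, the pathway genes, the neighbours of Dhrs3 in the ranking and the marker genes. Values of 2 genes of the pathway lists are not reported here, although the counts over these lists include them. Marker lists described above were mural, adventitial fibroblast, macrophage, endothelial, mesothelial, keratinocyte, cell cycle and Y-linked genes.

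Reads per gene were estimated from genes with a single GENCODE transcript longer than 800 bases. Of these 5844 genes, only those with low RPKM values entered the fit to whole reads. The fragment length of 200 bases was the best fit in WT (210 in Kai1-/-). Of the low values, 80.5% of 431 (WT) and 78.5% of 242 (Kai1-/-) lay within 0.15 of a whole read. Reads of a gene used its longest transcript and are approximate. Levels have Poisson intervals and ratios exact binomial intervals at 95%.

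Positions and transcripts came from GENCODE M1 on NCBI37, and promoters from RefSeq on GRCm38.p6, each found once on NCBI37. Coding sequences were aligned globally. The scripts were tested on simulated data. Python 3.11.15, numpy 2.4.6, pandas 2.3.3, scipy 1.17.1, Biopython 1.88 and matplotlib 3.10.9 were used. Alternatives were pseudocounts of 1 and 0.01 RPKM, scaling to the median, the upper quartile or Gapdh, the highest row of repeated symbols, and other filters.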

Additional observations from a re-analysis of the deposited data

How the results depend on the processing

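Of 54 recomputed log2 ratios of the 9 genes, 42 moved by less than the counting error, 12 moved further, 0 changed sign and 6 crossed the 2-fold line. These 6 were 4 of Rdh10, and 1 each of Aldh1a1 and Crabp2 with scaling to Gapdh. Taking the highest row of repeated symbols left the ratio of each of the 9 genes as it was, and those ratios are among the 42. With a pseudocount of 1 RPKM the ratios that moved further were those of Dhrs3 (-4.25), Rdh10 (-0.59), Aldh1a2 (-1.04) and Aldh1a3 (-1.41), all lower genes in Kai1-/-, which a larger pseudocount draws towards 0. With equal upper quartiles it was that of Cyp26b1 (0.67). With scaling to Gapdh, which multiplies all Kai1-/- values by 0.707, they were those of Dhrs3 (-5.43), Rdh10 (-1.44), Aldh1a1 (-1.35), Aldh1a3 (-2.35), Cyp26b1 (0.30), Crabp1 (-0.76) and Crabp2 (-1.01), and the median of all genes moved from 0.08 to -0.41.

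Of 48 recomputed counts 35 stayed within 1.5 times. With scaling to Gapdh, 5 members, 11 pathway genes and 1856 genes in all were more than 2-fold lower, and 0 members, 0 pathway genes and 278 genes higher. With no filter, 11 pathway genes were lower and 4 higher, and 1878 and 1205 of all genes. Counting genes that averaged 5 RPKM or more, which kept 5 members, 1 member and 2 pathway genes were lower, and 350 of all genes were lower and 511 higher. The splits of all genes were 908 lower and 656 higher with the median set to 0 and 977 and 594 with equal upper quartiles, against 786 and 803. These shifts follow from the scaling and from how many genes are counted.

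No paired analysis was possible because there was only 1 library of either genotype. The estimated reads limit Rarb (about 33 and 19) and Aldh1a2 (about 9 in Kai1-/-) most.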
